A study of Mus musculus with 236 samples.

Results

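Late S, G2 and M cells are the cells that have copied most or all of their DNA and are preparing to divide or dividing. Members were the cells that the authors' metadata class as Late-S, G2 or M among cells of the libraries whose names start with d05 or d25. They were 83 of 406 cells with RNA counts: 61 in late S and G2 and 22 in M. All cells came from 1 female hybrid line of mouse embryonic stem cells, with a C57BL/6J mother and a CAST/EiJ father. The line was kept in serum medium with LIF and a pair of kinase inhibitors (2i, against Gsk3 and MEK), and differentiation began when both LIF and 2i were taken away on fibronectin-coated plates. The metadata number these days 0.5 and 2.5, read here as days after that withdrawal, and no cells kept in 2i and LIF were used as controls. HiRES, which reads chromatin contacts and RNA from the same cell, was run on each. The day 0.5 cells were 41 in G1, 20 in Late-S, 6 in G2 and 15 in M, of 201. The day 2.5 cells were 82 in G1, 17 in Late-S, 18 in G2 and 7 in M, of 205. The metadata hold a heading, sample, with 3 values, numbered here as batches. Batch 1 holds day 0.5 only, batch 2 both days and batch 3 day 2.5 only. They split day 0.5 into 80 and 121 cells and day 2.5 into 122 and 83. What this heading stands for is not said. Nothing in the labels names separate cultures, so each day was taken as 1 sample and no test across cells was made. All intervals below are exact 95% intervals for counting error only. The sources used here do not say how the authors set the class, so whether RNA or contacts entered it was not established.

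In cycling cells, genes for copying DNA are mainly switched on near the G1 to S boundary by E2F factors. Genes for building the spindle, attaching chromosomes to it and splitting the cell follow later. Many of these late genes are held off in G1 by the DREAM complex and switched on in S and G2 by its MuvB core, joined by B-Myb and later FoxM1. MuvB meets DNA through Lin54, which binds a short promoter element, the CHR. When chromosomes condense in M, most transcription stops, and the RNA present is largely RNA made before. Mouse embryonic stem cells spend little time in G1, and E2F targets vary less over their cycle than in body cells.

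The CHR motif was read in the promoters of the mitotic genes that were higher in late S and G2 cells than in G1 cells at both days. The letters searched were TTTGAA and TTCGAA on both strands, in the 300 bases from 250 before to 50 after each gene's start, in RefSeq promoters of build GRCm38.p6. A promoter was in that table for 14 of the 16 genes, and 10 of the 14 (71.4%) held the motif, beside 5254 of all 27025 promoters (19.4%). Among all 128 mitotic list members with a promoter, 71 (55.5%) held it. Among 57 members of the 2 replication lists, 10 (17.5%) did. The stretches below run from 60 bases before to 20 bases after the start, 5′ to 3′ on the gene's strand, with the motif in capitals. They were chosen among the promoters with a match near the start; in Ckap5, Knl1 and Bub1b the matches lay further off, at -45, at 32, and at -188 and 41. Nusap1 is shown because its value was among the highest although its window holds no match.
Hmmr, chr11:40733418-40733497, minus strand: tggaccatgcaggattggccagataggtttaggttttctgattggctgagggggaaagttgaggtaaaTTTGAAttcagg
Kif23, chr9:61946780-61946859, minus strand: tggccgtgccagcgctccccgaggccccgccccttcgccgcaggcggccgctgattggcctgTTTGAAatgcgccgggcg
Cenpf, chr1:189688067-189688146, minus strand: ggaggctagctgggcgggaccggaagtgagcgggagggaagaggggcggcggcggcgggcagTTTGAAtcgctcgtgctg
Prc1, chr7:80294391-80294470, plus strand: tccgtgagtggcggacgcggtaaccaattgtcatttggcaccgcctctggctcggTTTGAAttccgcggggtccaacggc
Ccnf, chr17:24251390-24251469, minus strand: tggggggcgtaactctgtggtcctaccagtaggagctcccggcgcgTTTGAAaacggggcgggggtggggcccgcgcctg
Nusap1, chr2:119618238-119618317, plus strand: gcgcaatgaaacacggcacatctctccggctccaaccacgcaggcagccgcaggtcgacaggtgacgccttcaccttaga

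In the first 5 stretches, the first base of the motif lay at position 9 in Hmmr, 3 in Kif23, 3 in Cenpf, -5 in Prc1 and -14 in Ccnf, counting the first base of the transcript as 1 and with no position 0. These are matches of 6 letters only, with no binding measured.

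The median RNA content of a cell was lowest in M, with overlap between single cells. The median M cell held 5818 UMIs (unique molecular identifiers, 1 for each RNA molecule counted) at day 0.5, with a range of 501 to 16301. The median at day 2.5 was 4819, with a range of 533 to 11301. The median G1 cell held 11905 and 13948.5 UMIs at the same days, with ranges of 6025 to 19481 and 529 to 26624. At day 0.5, 12 of 15 M cells lay below the G1 median and 8 below the lowest G1 cell, while at day 2.5 all 7 lay below the median and 0 below the lowest. Late-S cells held 17627.5 and 15890, and G2 cells 11925 and 20054. The 2 days therefore differ in which of late S and G2 held more RNA. Less RNA in M can be fewer molecules in the cell or fewer captured, and these cannot be told apart here. Summed over cells, M held 110552 UMIs at day 0.5 and only 42119 at day 2.5, so that 1 UMI is worth 9.05 and 23.7 CPM (UMIs of a gene scaled by all UMIs of the class). Late S and G2 together held 400101 and 632099, and G1 held 496590 and 1138151. Values in M, above all at day 2.5, are the least precise here.

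**Figure D1:**
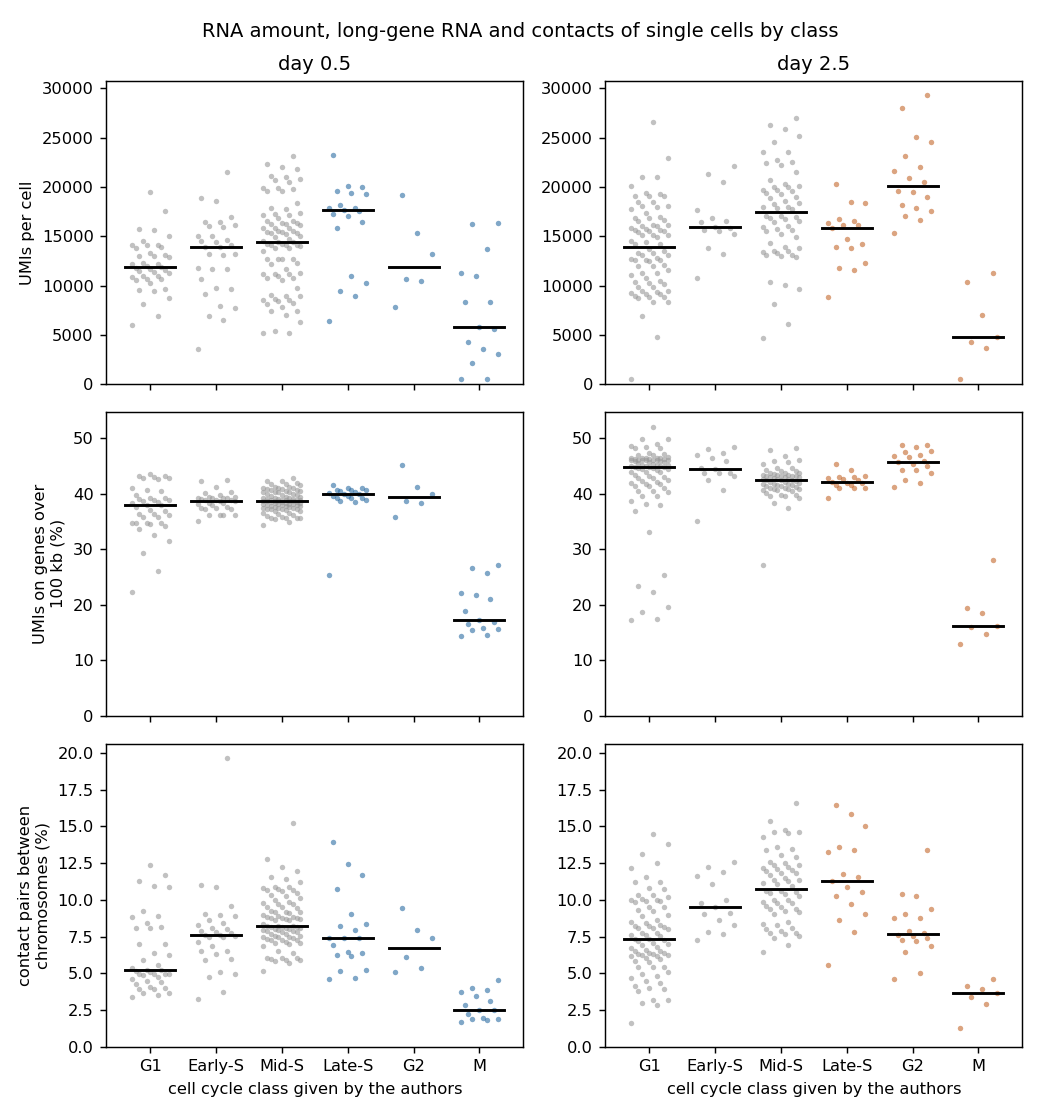
Each point is 1 cell, placed by the authors' cell cycle class and by UMIs per cell (top), percent of UMIs on genes longer than 100 kb (middle) and percent of contact pairs between chromosomes (bottom), at day 0.5 (left) and day 2.5 (right); black lines are medians and late S, G2 and M are coloured. M cells lie low on all 3 axes, with medians of 17.2% and 16.1% of UMIs on long genes.

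The class was set beside other measures of the same cells. Of all contact pairs, the median M cell had 2.51% between chromosomes at day 0.5 and 3.66% at day 2.5. The median late S and G2 cell had 7.39% and 9.06%, and all 15 and all 7 M cells lay below the lowest late S or G2 cell of their day. Contacts may have been used to set the class, so this is a description. The authors' G2M score of RNA was above the G1 median in 26 of 26 late S and G2 cells at day 0.5, in 33 of 35 at day 2.5, and in all 22 M cells. The S score was also highest in M, with medians of 0.41 and 0.44 beside 0.26 and 0.17 in G1. The authors' RNA cluster 4 held 20 of the 22 M cells and 11 cells of other classes, 8 of them G1. The 7 such G1 cells of day 2.5 had between 17.3% and 25.3% of their UMIs on genes over 100 kb, against 33.2% to 52.1% in the other 75 G1 cells.

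Markers of the late cell cycle were only partly in step with the class names. Top2a, the topoisomerase that untangles sister chromatids, stood at 432 CPM in G1, 506 in Late-S, 587 in G2 and 701 in M at day 0.5. Its levels at day 2.5 were 467, 870, 430 and 641, so that G2 lay beside G1. Cenpe, the kinetochore motor, rose from 84.6 CPM in G1 to 174 in late S and G2 at day 0.5, a ratio of 2.05 (1.39 to 3.11). The rise at day 2.5 was from 62.8 to 196, a ratio of 3.12 (2.30 to 4.21). Cenpf, a kinetochore protein of late S, G2 and M, rose 2.70-fold (1.78 to 4.18) and 4.19-fold (2.86 to 6.23). Mid-S cells, which are not members, had Cenpf at 154 and 165 CPM, beside 185 and 147 in late S and G2. Early-S cells of day 0.5 had Cenpe at 79.99 and Cenpf at 81.2 CPM, beside 84.6 and 68.5 in G1. Cenpe and Cenpf therefore lay above G1 in late S and G2 but did not set early S apart from G1 at day 0.5, or mid S from late S and G2.

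Late S and G2 cells differed from G1 cells of the same day by more RNA for a part of the spindle and kinetochore genes and by less RNA for many genes of the replication fork. A gene was called when its CPM ratio was at least 1.5 or at most the inverse of that, among genes with at least 50 UMIs over both groups. Of 3989 genes at day 0.5, 394 (9.88%) were higher and 508 (12.7%) lower. Of 5942 genes at day 2.5, 464 (7.81%) were higher and 805 (13.5%) lower. Over both days, 2.74% of 3795 genes were higher at each and 2.85% lower at each, while 37 were called in opposite directions. With median-ratio scaling (the median ratio over genes set to 1) in place of CPM, the split at both days became 134 higher and 67 lower. Without the cells of other classes in cluster 4 194 genes were called at both days, 93 of them higher.

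The 7 lists of mitotic genes held 157 names, of which 99 had enough UMIs at both days. Of these, 16 were higher and 4 lower at both days. At day 0.5 alone, 21 of 100 were higher and 13 lower, with a median log2 change of 0.13 beside -0.07 for all genes. Day 2.5 had 38 higher and 8 lower, with a median of 0.35 beside -0.08.

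Among the mitotic lists, the spindle genes had the highest median change at each day. Of 24 measured at day 0.5, 9 were higher and 1, Pcnt, lower, and of 26 at day 2.5, 16 were higher and none lower. The list's median log2 change was 0.37 at day 0.5 and 0.77 at day 2.5. In the day 0.5 cells outside batch 2 it was -0.07, over the 8 genes with enough UMIs there. Tpx2, which activates Aurora A kinase and seeds microtubules around chromosomes, stood at 55.4 CPM in G1, 288 in Late-S and 417 in G2 at day 0.5. Its levels at day 2.5 were 63.3, 359 and 196. Its ratio over G1 was 5.64 (3.65 to 8.67) and 4.14 (3.13 to 5.55). Late S and G2 both lay above G1 at both days. G2 lay below Late-S at day 2.5. At day 0.5 it lay above, but the intervals overlap (232 to 352 in Late-S, 286 to 589 in G2), and G2 held 32 UMIs in 6 cells. Nusap1, a microtubule-bundling protein, rose from 42.3 to 239 CPM, or 5.64-fold (3.51 to 9.58), at day 0.5. The later day had 41.7 and 191 CPM, or 4.57-fold (3.20 to 6.43). Its reads cannot be told from those of the overlapping Oip5 gene, since the sources used here do not say whether counting used strand. Hmmr, a spindle-pole protein whose promoter is printed above, rose 5.75-fold (2.96 to 12.2) and 4.59-fold (2.69 to 8.13). Kif18a, a motor that aligns chromosomes, rose 1.91-fold and 1.83-fold. Ckap5, a microtubule polymerase, Tacc3 and Spag5, spindle proteins, were also higher at both days.

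Kinetochore and checkpoint genes followed, with 7 of 20 higher and 2 lower at day 0.5 and 11 of 25 higher and 2 lower at day 2.5. Those higher at both days included Cenpe, Cenpf, Knl1, Bub1b and Ttk. Knl1, the platform for checkpoint proteins at the kinetochore, stood at 59.4 CPM in G1, 158 in Late-S and 91.3 in G2 at day 0.5, and at 76.4, 164 and 121 at day 2.5. Ttk, the kinase that starts the spindle checkpoint, rose 1.85-fold and 2.05-fold. Kntc1, a part of the RZZ complex, went the other way at both days, with ratios of 0.58 and 0.60. Of cytokinesis genes, 3 of 12 were higher and 1, Rock2, lower at day 0.5, and 5 of 13 were higher and none lower at day 2.5, with median log2 changes of 0.31 and 0.49. Those higher at both days were Kif23, the motor of the central spindle, and Prc1, which bundles its microtubules. Kif23 rose 2.66-fold (1.80 to 4.05) and 2.69-fold (1.93 to 3.73), and Prc1 2.07-fold and 2.95-fold. Mid-S cells also lay above G1, with Knl1 at 144 and 212 CPM, Ttk at 145 and 240 and Kif23 at 204 and 170.

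Regulators of entry into mitosis were mostly too sparse to call: 8 of 24 had enough UMIs at day 0.5 and 10 at day 2.5. Ccnf (cyclin F) was higher at both days, from 80.5 to 192 CPM and from 76.4 to 132 CPM. Mybl2, which encodes B-Myb, was lower at both days, with ratios of 0.64 and 0.49. Ccnb1, Cdk1, Aurka and Cks2, which drive entry, had under 50 UMIs over G1 and late S and G2 at each day and were not called. Of genes for chromosome condensation and topology, 0 of 15 were higher and 4 lower at day 0.5, and 2 of 16, Ncapd2 and Kif4, were higher and 2 lower at day 2.5, with median log2 changes of 0.07 and 0.15. The condensin genes Ncapd3 and Ncapg2 were lower at both days. Cohesin genes and those of the anaphase promoting complex had no member called the same way at both days.

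**Figure D2:**
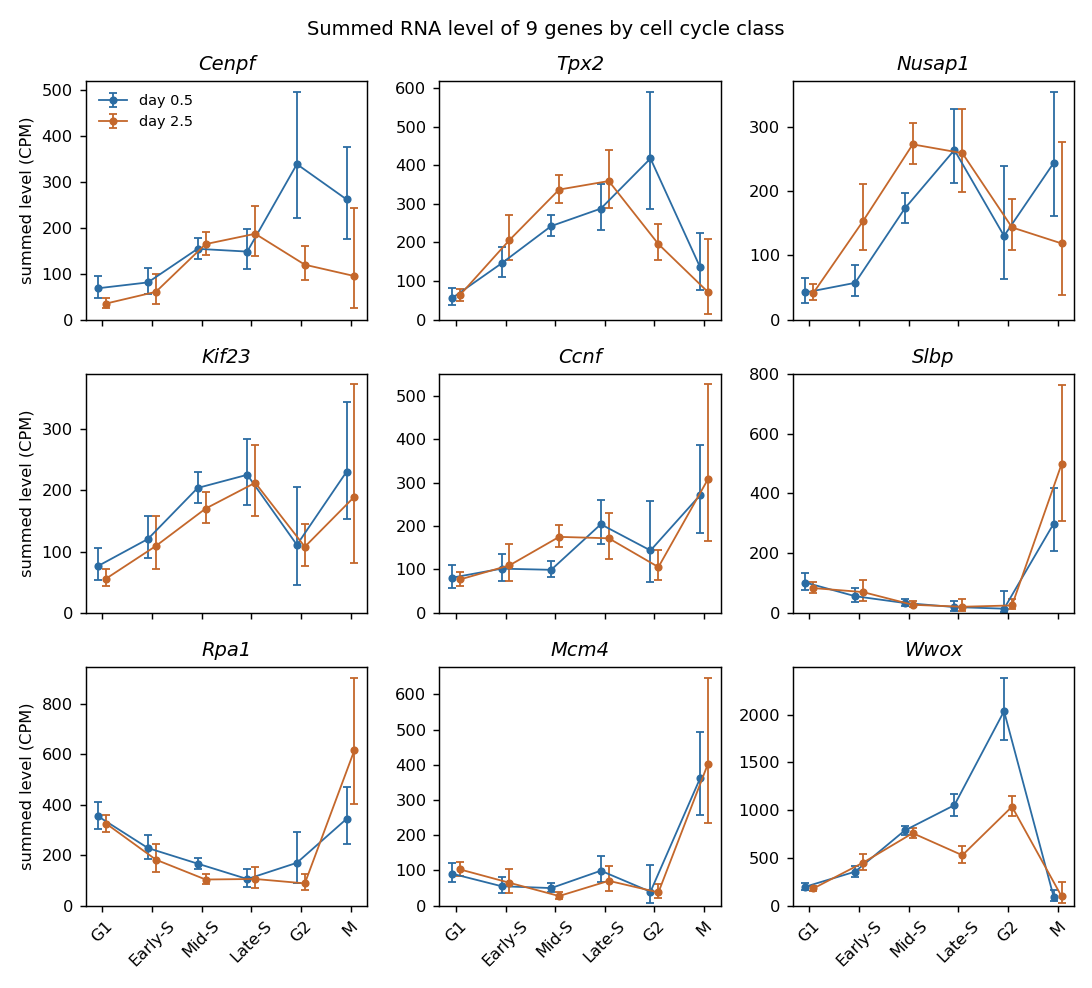
Summed level (CPM) of 9 genes in each class at day 0.5 (blue) and day 2.5 (orange); bars are exact 95% Poisson intervals and lines only join classes of a day. Spindle, kinetochore and cytokinesis genes lie above G1 from mid S to G2, Slbp and Rpa1 lie lowest there, and Slbp and Mcm4 are highest in M.

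Genes of the replication fork and nucleotide supply were lower in late S and G2, and none was higher. Of 32 measured at day 0.5, 17 were lower, with a median log2 change of -0.64. Of 35 at day 2.5, 24 were lower, with a median of -0.95, and 15 genes were lower at both days. Slbp, which binds and protects histone mRNA, stood at 100.7 CPM in G1, 18.6 in Late-S and 13.04 in G2 at day 0.5. At day 2.5 it stood at 82.2, 19.5 and 23.95, so that late S and G2 lay below G1 at both days. Its ratio was 0.17 (0.07 to 0.39) and 0.27 (0.14 to 0.47). Rpa1, the large subunit of the protein that coats single-stranded DNA, fell from 353 to 117.5 CPM and from 325 to 94.9 CPM. Its ratios were 0.33 (0.23 to 0.46) and 0.29 (0.22 to 0.38), and it overlaps Smyd4. Tyms, which makes thymidylate, had ratios of 0.32 and 0.44. Wdhd1, a replisome adaptor, had 0.40 and 0.50. Clspn, Timeless, Uhrf1, Dtl, Pold3, Prim2, Pola2, Rpa2, Atad2 and Ung were also among the 15.

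Origin licensing genes were called in unlike shares at the 2 days, with fewer measured at day 0.5. At day 0.5, 2 of 17 were lower and 2, Mcm3 and Dbf4, higher, near the 12.7% and 9.88% of all genes. At day 2.5, 10 of 26 were lower, Mcm4, Mcm6, Orc1 and Orc4 among them, and none higher, beside 13.5% and 7.81% of all genes. Cdc6, which loads the MCM helicase, was lower at both days, with ratios of 0.53 and 0.30, as was Mcm10. Among regulators of the G1 to S step, Ccne1 and E2f7 were lower at both days. Of the genes for homologous recombination and Fanconi repair, Brca1, Brip1 and Fancm were lower and Rad51b higher at both days. Whether these differences between the days are larger than the spread between cultures was not tested.

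By the size rule over all genes, the 12 highest in late S and G2 at both days were Wwox, Nusap1, Tpx2, Hmmr, Immp2l, Trappc9, Zbtb20, Dpp6, Malat1, Cenpf, Kif23 and Kctd16. All 12 had the same sign in each of the 4 sets that day and batch make. Those sets are parts of the cells in which the genes were chosen, so this is no independent check. Beside the mitotic genes, this set is one of very long genes: 6 of the 12 exceed 100 kb and 4 exceed 500 kb. Wwox, an oxidoreductase gene of 913 kb that spans a common fragile site, stood at 197 CPM in G1, 1051 in Late-S and 2035 in G2 at day 0.5. At day 2.5 it stood at 179, 527 and 1035, so that G2 lay above late S at both days. Wwox in Mid-S stood at 786 and 758 CPM, above Late-S at day 2.5. Its ratio over G1 was 6.28 (5.05 to 7.88) and 4.63 (3.93 to 5.46). Immp2l, a mitochondrial peptidase gene of 932 kb that is also a fragile site, rose 7.53-fold (5.87 to 9.79) and 3.68-fold (3.13 to 4.35). Dpp6, a potassium channel subunit gene of 910 kb, rose 3.70-fold and 2.67-fold, and Zbtb20, a zinc finger repressor gene of 759 kb, 3.05-fold and 2.73-fold. Malat1, a nuclear noncoding RNA, is the exception at 6.98 kb. It rose from 2077 to 5922 CPM, or 2.85-fold (2.65 to 3.07), and from 4146 to 10819 CPM, or 2.61-fold (2.51 to 2.71). Trappc9 overlaps Peg13 and Immp2l overlaps Lrrn3, and counting may have split reads between them.

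Over all genes longer than 500 kb, the median log2 change of late S and G2 over G1 was 0.42 at day 0.5 (92 genes, 44.6% called higher) and 0.28 at day 2.5 (181 genes, 29.8% called higher). In the shortest of 5 equal bins of genes, the change had medians of -0.07 and -0.08. The share of summed UMIs on genes over 500 kb was 3.00% in G1 and 4.52% in late S and G2 at day 0.5, and 4.84% and 6.86% at day 2.5. In Mid-S it was 4.26% and 6.29%, so most of the difference from G1 was already there.

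The 12 lowest included Slbp, Rpa1, Tyms, Sec31a, Shmt1, Zdhhc14, Clcn5, Casp8ap2, Abtb2, Wdhd1 and Nsd2. Casp8ap2, needed for histone mRNA processing, had ratios of 0.47 and 0.48. Shmt1, which feeds thymidylate synthesis, had 0.34 and 0.45, and Nsd2, a histone H3 lysine methyltransferase, 0.44 and 0.51. Sec31a, of the COPII coat, had 0.34 and 0.43, and Clcn5, an endosomal chloride exchanger on the X chromosome, 0.29 and 0.48. Of the 12, 11 had the same sign in all 4 sets, which again are parts of the cells in which they were chosen. Zdhhc14 at day 0.5 had a log2 change of 0.15 in batch 2 alone.

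M cells differed from G1 cells of their day above all by gene length. The median M cell had 17.2% (14.4% to 27.1%) of its UMIs on genes over 100 kb at day 0.5 and 16.1% (12.96% to 28.05%) at day 2.5. The median G1 cell had 37.9% and 44.8%. At day 0.5, 12 of 15 M cells lay below the lowest G1 cell and 2 of 41 G1 cells lay within the range of M. At day 2.5, 4 of 7 lay below the lowest G1 cell, all 7 below the lowest late S or G2 cell, and 7 of 82 G1 cells within the range of M. Genes under 20 kb held 22.5% and 23.1% of UMIs in the median M cell and 12.7% and 10.2% in the median G1 cell. The exon share of UMIs did not move with this: its median was 25.6% and 25.6% in M and 26.5% and 23.9% in G1. In 3 M cells with under 600 UMIs it was higher, up to 66.9%. With cells under 2000 UMIs left out, the long-gene medians in M were 16.9% and 16.04%.

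In 5 equal bins of gene length, the median log2 change of M over G1 fell from 0.59 in the shortest to -1.29 in the longest at day 0.5. The day 2.5 medians fell from 0.85 to -2.02. In late S and G2 over G1 the same bins lay between -0.16 and 0.07.

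**Figure D3:**
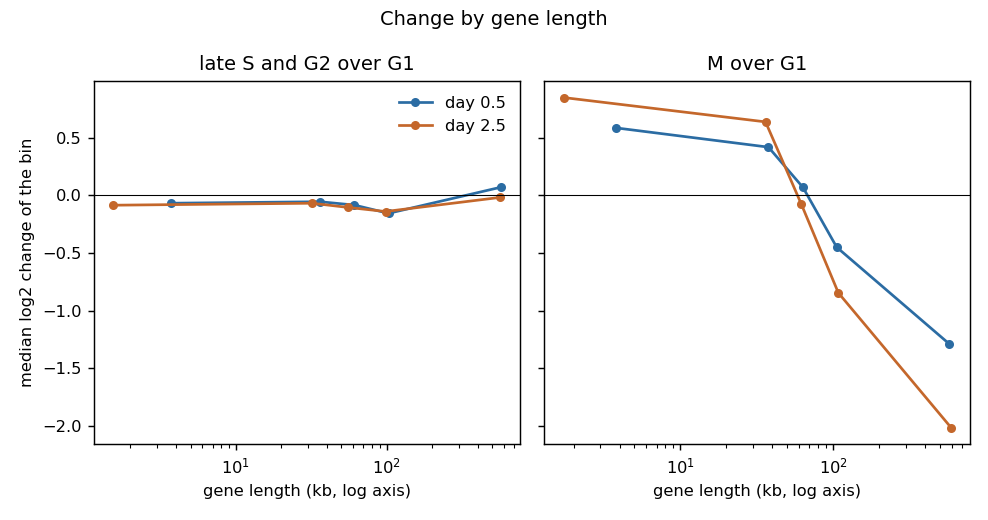
Median log2 change of the genes in 5 equal bins of gene length (kb, log axis, at the geometric mean of the bin's shortest and longest gene), for late S and G2 over G1 (left) and M over G1 (right), at day 0.5 (blue) and day 2.5 (orange). The M lines fall from 0.59 and 0.85 to -1.29 and -2.02, while the late S and G2 lines stay near 0.

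Of 3135 genes at day 0.5, 798 (25.5%) were higher in M than in G1 and 1029 (32.8%) lower. Of 4885 at day 2.5, 1519 (31.1%) were higher and 2083 (42.6%) lower. At both days, 505 of 2956 (17.1%) were higher and 751 (25.4%) lower. These shares include counting error, which is large at day 2.5. Where at least 10 UMIs would be awaited in M, from counts pooled over both groups, 144 of 1015 genes were higher and 572 lower. Most pooled UMIs at day 2.5 are of G1, so this filter favours genes high in G1 and does not size the counting error. Of the 2083 genes lower at day 2.5, 1721 stay so when genes with no UMI in M are put at 3 UMIs, the limit used here for a count of 0. Without other classes in cluster 4, the counts at both days were 506 and 754. The median log2 change over all genes at day 2.5 was -0.20, which puts the zero of single genes slightly off.

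The 12 genes highest in M over G1 at both days were 11.05 to 50.1 kb long where their place is known. They were Gm15892, Gtf2e1, Azin1, Slc16a1, Mcm4, Rab1a, Psmb2, H3f3a, Eif1ax, Eif4enif1, Orc4 and Irs2. Mcm4, a subunit of the replicative helicase, stood at 90.6 CPM in G1, 98.9 in Late-S, 39.1 in G2 and 362 in M at day 0.5, and at 102.8, 70.2, 37.3 and 404 at day 2.5. M was thus above each other class named here at both days, with ratios over G1 of 3.99 (2.54 to 6.25) and 3.93 (2.21 to 6.56). Orc4, of the origin recognition complex, had 3.87 (2.42 to 6.14) and 3.60 (2.30 to 5.44). Gtf2e1, a subunit of the general factor TFIIE, had 6.74 (3.70 to 12.5) and 4.61 (2.47 to 8.02). H3f3a, which encodes the histone variant H3.3, had 4.76 (2.89 to 7.83) and 3.73 (2.06 to 6.31). Slc16a1, a lactate transporter, had 4.06 and 6.45, and Irs2, an adaptor of the insulin receptor, 3.70 and 7.47. Psmb2, a proteasome subunit, Rab1a, a GTPase of transport to the Golgi, and the translation proteins Eif1ax and Eif4enif1 had between 3.71 and 5.46.

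The 12 lowest in M were Susd4, Me1, Enox2, Dtna, Rian, Hs3st4, Bmp6, Eefsec, Gpc3, Cdh2, Mrtfb and B830012L14Rik, and 10 of the 11 with a known place exceed 100 kb. Gpc3, a cell-surface glypican on the X chromosome, held 2 UMIs in M at day 0.5 and 3 at day 2.5, against 692 and 941 CPM in G1. Its ratios were 0.026 (0.0031 to 0.095) and 0.076 (0.016 to 0.22). Susd4 held no UMI in M at either day and was at least 5.05-fold and 1.80-fold lower than in G1 (137 and 128 CPM), taking 3 UMIs over the M cells as the limit. Me1, malic enzyme, was at least 4.34-fold and 1.52-fold lower. Bmp6, a secreted growth factor, was at least 6.31-fold lower at day 0.5. Its 79.1 CPM in G1 at day 2.5 lay under 87.6 CPM, the exact upper 95% limit for no UMI in M. Cdh2, N-cadherin, was at least 4.53-fold lower at day 0.5, and its level at day 2.5 was too low in G1 for a limit. Rian, a noncoding RNA of an imprinted cluster, held 1 UMI in M at day 0.5, a ratio of 0.037 (0.00094 to 0.21), and none at day 2.5, at least 8.46-fold lower.

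Lists of genes in M were read beside gene length, because short genes as a whole were higher. Mitotic entry genes had median log2 changes over G1 of 1.14 and 0.87. Less the median of genes of like length (20 bins), these became 0.59 and 0.00. Ccnf, Wee1, Cdc25a and Lin54 were called higher at both days. Wee1, the kinase that holds Cdk1 off, stood at 83.6 CPM in G1, 77.3 in Late-S, 157 in G2 and 190 in M at day 0.5, and at 97.5, 97.5, 66.5 and 332 at day 2.5. Cytokinesis genes had medians of 0.43 and 0.54. Ect2, Kif23 and Rhoa were higher and Kif14 and Diaph3 lower at both days. Kif14 held no UMI in M at day 2.5 and lies under the limit there. Of the list, 2 of 10 were lower at day 0.5 and 5 of 13 at day 2.5, beside 32.8% and 42.6% of all genes. At day 2.5, 3 of the 13 held no UMI in M. Less like-length genes, the cytokinesis medians were 0.39 and 0.57. Their 95% intervals, over genes and not for counting error, were -0.73 to 0.97 and -3.33 to 1.28. Spindle genes had 0.37 and -0.06, and kinetochore genes 0.61 and -0.33, so neither list kept its direction between the days. In the few M cells of day 0.5 outside batch 2, the kinetochore median was -2.41, over only 4 genes. Less like-length genes, these lists lay at 0.49 and -0.06, and at 0.13 and -0.98. Rangap1, which sits at the mitotic kinetochore, had ratios of 3.07 and 5.01. Cenpp, a kinetochore gene, had 0.10 and 0.08.

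Of 14 origin licensing genes at day 0.5, 7 were higher in M than in G1 and 1 lower, and of 22 at day 2.5, 13 were higher and 7 lower. Over all genes, 25.5% and 31.1% were higher at the 2 days and 32.8% and 42.6% lower. The list's median log2 changes were 0.71 and 0.90. Mcm4, Mcm6, Orc1 and Orc4 were higher and Orc3 lower at both days. Orc1 had ratios of 3.13 and 5.05. Less the median of like-length genes, the list's medians were 0.28 and 0.07. Replication fork genes had medians of 0.29 and 0.61, which became -0.07 and -0.0029 in the same way. With at least 10 UMIs awaited in M at day 2.5, the origin median was -0.10 (4 genes) and the fork median -0.15 (9). The median over all 1015 genes of that set was -0.84. Slbp, which was lowest in late S and G2, stood at 299 CPM in M at day 0.5 and 499 at day 2.5, ratios over G1 of 2.96 and 6.07. Genes for homologous recombination and Fanconi repair had medians in M of -0.58 and -1.04, or -0.53 and -0.77 less like-length genes. With at least 10 UMIs awaited at day 2.5 the median was 0.07, over 3 genes. Of 19 and 24 measured recombination and Fanconi genes, 10 and 14 were called lower and 2 and 3 higher, beside 32.8% and 42.6% of all genes lower. Those lower included Fancd2, Fanci, Fanca, Fancl, Blm and Atr at both days.

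**Figure D4:**
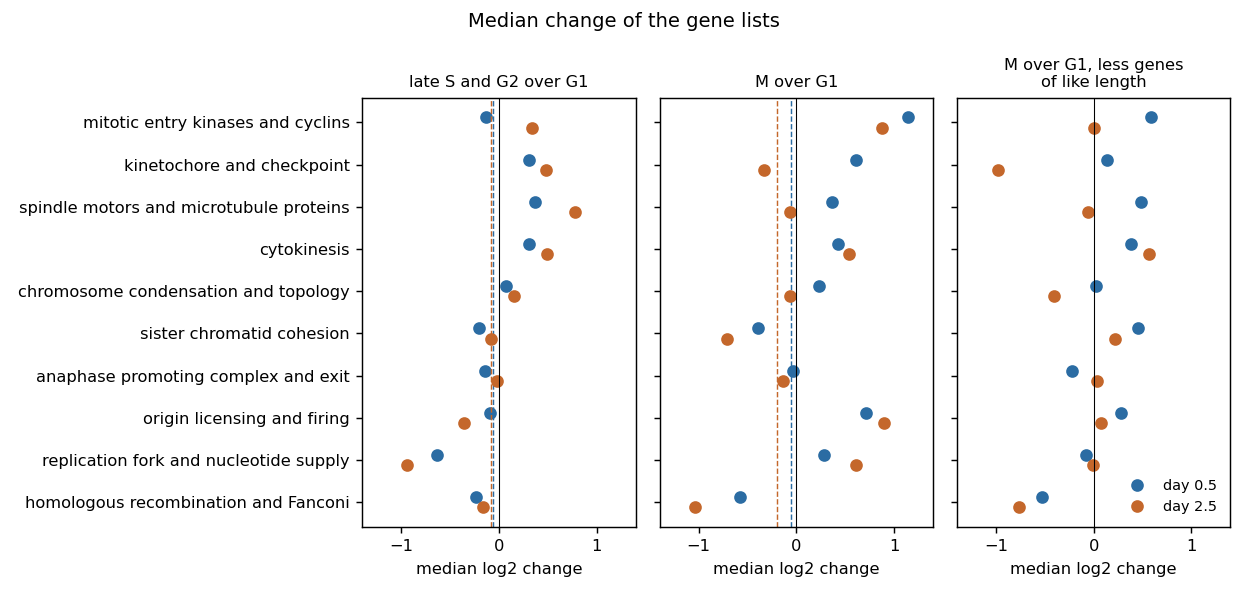
Median log2 change of 10 gene lists at day 0.5 (blue) and day 2.5 (orange) for late S and G2 over G1 (left), M over G1 (middle) and M over G1 less the median of genes of like length (right); dashed lines are the medians of all genes. In late S and G2 the spindle list lies at 0.37 and 0.77 and the replication fork list at -0.64 and -0.95, while in M less like-length genes the fork list lies at -0.07 and -0.0029 and the origin list at 0.28 and 0.07.

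M cells were also set against late S and G2 cells. Of 2644 genes at day 0.5, 798 (30.2%) were higher in M and 881 (33.3%) lower. Of 3256 at day 2.5, 940 (28.9%) were higher and 1451 (44.6%) lower, and at both days 462 of 2290 (20.2%) were higher and 605 (26.4%) lower. The 2 replication lists together had 16 of 28 genes higher and 2 lower at both days. At day 2.5 the fork list's median log2 change was 1.50 (18 genes) and the origin list's 0.74 (11 genes). With at least 10 UMIs awaited in M they were -0.084 and -0.66, over 3 genes each, beside -0.92 for all 943 genes. Outside batch 2 the origin median was -0.35, over 5 genes. Less like-length genes, the fork medians were 0.56 and 0.87 at the 2 days and the origin medians 0.25 and 0.62. The 7 mitotic lists had 11 of 71 higher and 10 lower. Replication fork genes higher in M at both days included Pold3, Pole, Rfc2, Rpa1, Rrm2, Dut, Clspn, Dtl, Atad2, Exo1 and Wdhd1. Pola1, the catalytic subunit of the priming polymerase, was lower, at 733 CPM beside 2148 at day 0.5 and 404 beside 989 at day 2.5. Tpx2, Ckap5, Kif15 and Cdk5rap2, of the spindle list, were lower in M than in late S and G2 at both days. Wwox, highest in G2, held only 10 and 4 UMIs in M, ratios to late S and G2 of 0.07 (0.03 to 0.14) and 0.11 (0.03 to 0.30).

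The study follows X inactivation, in which the noncoding RNA Xist coats and silences 1 of the X chromosomes of a female cell. At day 0.5, Xist held 5 UMIs in late S and G2 and 16 in G1. At day 2.5 it stood at 2274 CPM in late S and G2 and 843 in G1, a ratio of 2.70 (2.49 to 2.93). In batch 2 the ratio was 2.36 (2.10 to 2.65) and in batch 3 it was 3.11 (2.75 to 3.50). Xist above the G1 level was not confined to late S and G2 at day 2.5. The median cell had 1640 CPM in Early-S and 1337 in Mid-S, beside 1978 in late S and G2 and 733 in G1. Xist was detected in like shares of cells, 27 of 35 in late S and G2 and 64 of 82 in G1. Whether a cell was in the authors' allele table moved with its Xist level. In the 21 late S and G2 cells and 52 G1 cells of that table, Xist stood at 3638 and 1375 CPM. In the 14 and 30 cells outside it, it stood at 49.9 and 38.6 CPM, a ratio of 1.29 (0.55 to 2.76). Cells outside the table had more X-linked RNA, with 5.61% of UMIs in both late S and G2 and G1, against 3.87% and 4.13% in the table. The sources used here do not say what decided entry into the table, and its part in these values was not tested. All 22 M cells were outside it. In M at day 2.5 Xist held 49 UMIs, of which 71.4% came from 1 cell of 533 UMIs.

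**Figure D5:**
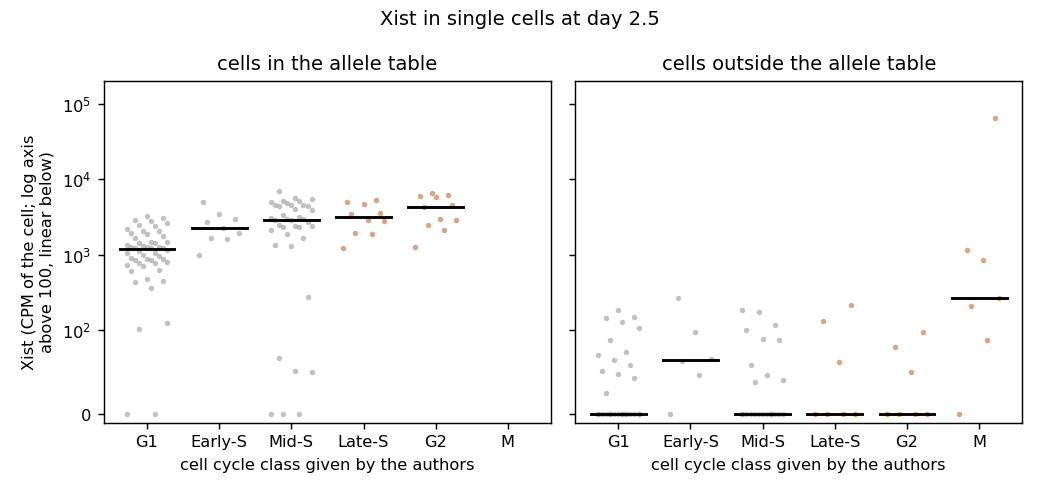
Xist level of single cells at day 2.5 (CPM of the cell; linear below 100 and log above) by cell cycle class, for cells in the allele table (left) and outside it (right); black lines are medians. Late-S and G2 cells of the table lie mostly above the G1 cells beside them, cells outside the table other than M lie at 271 CPM or below, and the highest M cell is the one of 533 UMIs.

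Jpx, a noncoding neighbour that activates Xist, was higher in late S and G2 at day 2.5, with 88.6 beside 50.1 CPM, a ratio of 1.77 (1.20 to 2.60). Rlim, the ubiquitin ligase that degrades the Xist repressor Rex1, was lower at day 0.5 with a ratio of 0.51 (0.32 to 0.79). At day 2.5 its ratio was 0.70 (0.55 to 0.89), inside the limit for a call, and it was 0.43 (0.27 to 0.65) in cells of the allele table and 0.97 (0.71 to 1.31) outside it. In M, Rlim was higher than in G1 at both days, by 1.91-fold (1.21 to 2.94) and 2.47-fold (1.49 to 3.74). The share of UMIs from X-linked genes in late S and G2 was 1.01 and 0.96 times that in G1. In M it was 0.915 and 0.742 times, which stands beside the low share of long genes in the same cells.

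In the allele table the C57BL/6J share of X-linked UMIs, without Xist and Tsix, was 51.1% in late S and G2 and 50.0% in G1 at day 0.5, with SDs over cells of 5.15 and 4.80 percentage points. At day 2.5 it was 37.4% and 36.99%, with SDs of 30.5 and 24.7. The Late-S cells stood at 51.4% (10 cells) and the G2 cells at 27.8% (11 cells) at that day. Of these few cells, 6 of the 10 and 7 of the 11 had 80% or more from 1 parent. With at least 20 allelic UMIs, 13 of 21 late S and G2 cells (61.9%, 38.4% to 81.9%) had 80% or more from 1 parent, and 19 of 51 G1 cells did (37.3%, 24.1% to 51.9%). These intervals overlap. No cell of either group did so at day 0.5, which allows shares of up to 11.5% of 26 and 7.32% of 41 cells. With Xist and Tsix counted, 0 of 21 late S and G2 cells and 8 of 51 G1 cells passed at day 2.5.

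Naive pluripotency genes were lower at day 2.5 in each class. Naive pluripotency genes summed to 3172 CPM in late S and G2, 3079 in G1 and 2718 in M at day 0.5, and to 128, 233 and 190 at day 2.5. Calling day 2.5 over day 0.5 by the same rule, 7 of 7 measured naive genes were lower in late S and G2 (900 of 4390 genes, 20.5%), 10 of 10 in G1 (20.2%) and 2 of 2 in M (31.4%). Of formative and primed genes, 5 of 11 were higher in late S and G2 (23.8%), 8 of 13 in G1 (23.1%) and 2 of 4 in M (18.4%). Of the same genes, 3, 2 and 1 were lower in these classes. G1 cells are compared with later cells within a day, so the 2 mixtures share the day but may differ in state, and 128 beside 233 CPM of naive genes at day 2.5 is such a difference.

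Lists of markers of other cells were summed in the same classes. Of 13 feeder fibroblast markers, the members' classes held UMIs of 1 to 6, with sums of 10.8 to 47.5 CPM, and Col1a1, Postn, Acta2 and Tagln were at 0. Of 13 primitive endoderm markers, 8 held UMIs in late S and G2, 4 in M and 9 in G1 at day 2.5. Sox7, Foxa2 and Ttr were at 0 in every class compared here. The sums at day 0.5 were 99.97 CPM in late S and G2, 90.5 in M and 72.5 in G1. They were higher at day 2.5, at 221 CPM in late S and G2, 356 in M and 344 in G1. Those of M rest on 10 and 15 UMIs. Trophectoderm markers summed to 116.2 CPM in late S and G2 and 230 in G1 at day 0.5 and to 9.49 and 33.8 at day 2.5, with Cdx2, Elf5 and Hand1 at 0. Neuroectoderm markers summed to 674 CPM in late S and G2 and 316 in G1 at day 0.5, and to 242 and 353 at day 2.5, with Sox1 at 0 in late S, G2 and M at both days. Ribosomal protein genes in M over G1 had medians of 0.45 and 0.53, and Rpl23, Rpl41, Rpl5 and Rps18 were among those higher at both days. Less like-length genes, their medians were 0.22 and 0.22.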

How the data were processed

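HiRES cells of 1 line were used, from 228 of the 236 libraries (114 at each day). The expression table holds the authors' expected counts, UMIs per gene and cell with 11.1% of values above 0 fractional, and the deposited allele table holds X-linked UMIs by parent. The deposited metadata give counts of exon UMIs per cell, the fraction of pairs between chromosomes, and the authors' RNA scores and classes. The build is GRCm38 per the submitters' processing notes; the sources used here do not state the aligner, counter, strand or filters. Of other columns, 1101 of the expression table and 893 of the allele table match no sample and were not used.

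UMIs were summed per day and class and scaled to CPM. Genes needed 50 UMIs over both groups and a ratio of 1.5; log2 changes used a pseudocount of 5 CPM. Ratio intervals are exact conditional, shares Clopper-Pearson, at 95%. Each day was 1 sample, so no test was run. The rule for named genes took the 12 highest and 12 lowest with the same sign at both days, ranked by the smaller of the 2 log2 changes, the 4 members of each list with most UMIs, Top2a, Cenpe, Cenpf and the X-inactivation centre; other members named from lists were chosen after their values were seen. No doublet caller was run. Members and lists were chosen with earlier results of these data known. Python 3.11.15, pandas 2.3.3 and scipy 1.17.1 were used, and the code was tested on simulated data. Some genes that met these rules are not reported here.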

Additional observations from a re-analysis of the deposited data

Results flagged for a closer look

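A few genes moved in opposite directions at the 2 days, in each case without a test of the difference, since each day is 1 sample. Map2, a neuronal microtubule protein, had a log2 change of 0.74 in late S and G2 over G1 at day 0.5 and -0.57 at day 2.5, a difference of -1.31. Abtb2 had 1.06 in M over G1 at day 0.5 and -1.99 at day 2.5, a difference of -3.05, with 1 UMI in M at day 2.5. Zwilch, of the kinetochore RZZ complex, had 0.59 and -0.94 in M over G1, a difference of -1.53. Tsix, the antisense partner of Xist, had 1.14 and -0.69 in M over late S and G2, a difference of -1.83, and its reads cannot be told from those of Xist without strand.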

How the results depend on the processing

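With 1 sample a day, no spread between cultures is known, and M at day 2.5 rests on 7 cells and 42119 UMIs. The genes called at both days numbered 212 in late S and G2 over G1, 1256 in M over G1 and 1067 in M over late S and G2. With a minimum of 20 UMIs these became 470, 2262 and 2027. With a minimum of 100 they became 125, 642 and 504, and with no minimum 3660, 7847 and 6987. At a ratio of 2 they were 38, 721 and 628, and in cells thinned to 5000 UMIs 96, 460 and 239. Outside batch 2 they were 135, 500 and 344. In cells with the letter B after the day in their names they were 31, 55 and 32. In batch 2 alone the M counts were 760 and 567, and with at least 10 UMIs awaited, chosen after seeing the data, 446 and 428. Leaving out cells under 2000 UMIs gave 212, 1260 and 1063.

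The spindle median of day 0.5 (0.37, 24 genes) became -0.074 outside batch 2 (8 genes) and 0.074 thinned (6 genes). The fork median of late S and G2 (-0.64 and -0.95) became -1.005 in G2 alone at day 0.5 and -1.05 in cells of the allele table at day 2.5. Some M medians turned, several in settings that left few genes of the list. The kinetochore median at day 0.5 (0.61, 16 genes) was -0.52 over 5 genes with a minimum of 100. It was -2.41 outside batch 2 and -1.18 thinned, over 4 genes each. At day 2.5 the fork median over G1 (0.61, 35 genes) was -1.26 with the letter B (5 genes) and -0.15 with 10 awaited UMIs (9 genes). It was -0.0029 less like-length genes. With 10 awaited UMIs the origin median was -0.10 (4 genes) and the recombination median 0.066 (3 genes), beside -0.84 over all genes. The cohesion median (-0.71) was 0.22 less like-length genes, and -0.03 with genes at 0 put at their bound. Over late S and G2, the origin median (0.74) was -0.35 outside batch 2 (5 genes) and -0.66 with 10 awaited UMIs (3 genes). The fork median (1.50) was -0.084 with 10 awaited UMIs (3 genes), beside -0.92 over all genes. Zdhhc14 at day 0.5 was 0.15 in batch 2. The Xist ratio of 2.70 was 1.29 outside the allele table, 2.36 in batch 2 and 3.11 in batch 3. The causes were not tested. Comparisons of M in cells of the allele table could not be run, since it holds no M cell. No paired analysis was possible because the classes compared are cells of 1 sample a day and carry no replicate numbers; values within batches are given in its place.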
